A study of Rattus norvegicus with 6 samples.

Results

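Histone genes encode the proteins around which DNA is wound, and 32 of them were covered by named probes on a rat array that carried 13903 named genes in all. The 32 were every gene whose probe accession led to a current RefSeq symbol of the histone families H1, H2A, H2B, H3 or H4. By symbol, 18 were replication-dependent genes, 7 were variants and 7 were genes known from the germ line; the rule uses no measured value. RNA came from the pancreas of male rats of 6 weeks, either control animals or animals with acute pancreatitis (AP). AP was induced by running 1 mL/kg of 4% sodium taurocholate, a bile salt, backwards up the pancreatic duct, and the tissue was taken after 9 h. The labels give neither a strain nor what was done to the control rats, and they do not tie an array to an animal.

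The 3 scans deposited per group came from 2 arrays per group: the scans labelled 2 and 3 of each group occupied the same position on the slide, and the deviations of single spots from their probe's mean correlated with r = 0.993 in the control pair and r = 0.992 in the AP pair. In all other pairs of scans r was at most 0.739, across 1644 spots that are not independent replicates. Scans 2 and 3 were therefore averaged as array 2 of their group, and n = 2 arrays per group throughout. The p-values measure only the spread between these arrays, and the 2 arrays per group limit the precision of every value. The 75th percentile of the signal, by which each array was scaled, was 140 to 147 on the control scans and 70.1 to 77.7 on the AP scans, and between 10905 and 15388 of 24684 probes were well above background. A level below is the log2 of a probe's signal relative to that percentile, and a change is AP minus control on the same scale. Levels of different probes are not compared, because probes differ in how strongly they bind.

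Each directional statement follows the deposited labels; were the labels of the groups exchanged, every direction would turn, which was not tested. On the arrays labelled AP, 3 of 5 tested neutrophil markers were lower, among them S100a8, a neutrophil protein, at least 90.7-fold; Ncf1, a subunit of the phagocyte oxidase, was higher (change 1.22 ± 0.11, adjusted p = 0.0032), and Cxcr2 did not pass. By contrast, all 10 tested markers of T and B lymphocytes were higher. Of the acinar markers, the enzymes of the digestive gland itself and their regulators, all 10 tested were well above background on every scan, and 7 were higher. Without scaling, 1 of these 10 was higher and 3 were lower, beside 5.30% and 62.4% of all genes. Markers of fat cells (6 of 7), red blood cells (5 of 5) and fibroblasts (5 of 6) were lower. Beside these counts, with scaling, 24.1% of the 8732 genes tested were higher and 31.9% lower. In bulk tissue, fewer cells of a type and less RNA per cell cannot be told apart.

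Replication-dependent histone genes are known to be transcribed mainly in S phase, when new DNA needs new nucleosomes. They lie in clusters, mostly lack introns, and their messenger RNAs end in a stem-loop bound by SLBP instead of a poly(A) tail. Most variant histones, though not all, are made through the whole cell cycle from ordinary polyadenylated messenger RNAs. They replace the replicative forms at particular places. The adult exocrine pancreas is known as a tissue in which few cells divide. Per the labels, the RNA was labelled by random priming after removal of ribosomal RNA, a method that does not need a poly(A) tail.

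Most replication-dependent histone genes that could be tested were higher on the AP arrays, while the variants went both ways; the difference between the classes was not tested. Of 18 replication-dependent genes, 14 could be tested, and 12 of these were higher, 1 was lower and 1 did not pass the threshold of an adjusted p of 0.05; the median change was 3.59. Of 7 variants, 5 could be tested, and 3 were lower, 1 was higher and 1 did not pass, with a median change of -0.39. Beside these, 24.1% of the 8732 genes tested were higher and 31.9% lower, 56.0% in all, with a median change of -0.03. An increase of at least 8-fold was found for 1.37% of all genes, and for 9 of the 14 tested replication-dependent genes, H1f1 and H1f5 among them, which were dim in control. In a fit of only the probes well above background on all 6 scans, which leaves out H1f1 and H1f5, it was 7 of 12. Without scaling it was 5 of 14 (and 0.573% of all genes). With a background correction by normexp it was 5 with quantile scaling and 3 with a 75th-percentile shift. For these normexp settings, and for the fit of probes well above background on all scans, the share of all genes past 8-fold was not computed. Over all histone classes, 20 of 23 tested genes changed, 15 of them upwards. Scaling moves all genes of an array together: without it the median change of all genes was -0.99, 5.30% of them were higher and 62.4% lower, and the medians became 2.63 for the replication-dependent genes (10 higher, 2 lower) and -1.34 for the variants (none higher, 3 lower), the same distance apart.

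**Figure D1:**
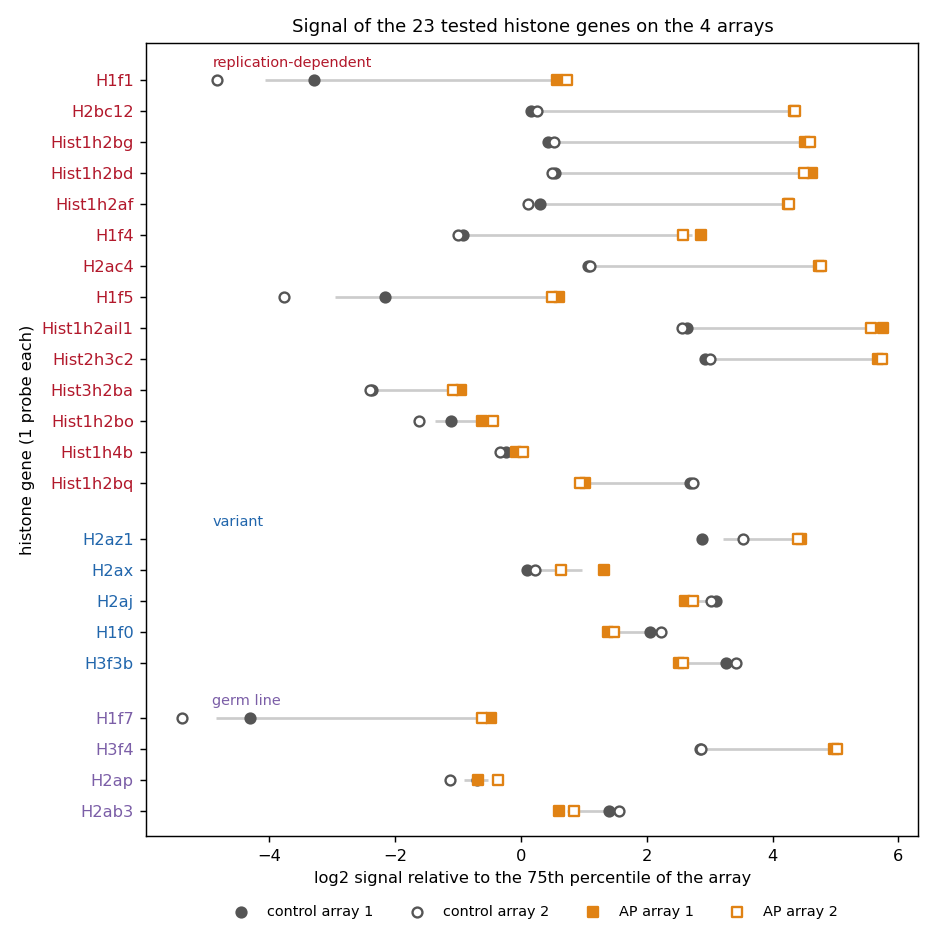
Levels of the 23 tested histone genes on the 4 arrays, as log2 signal relative to the 75th percentile of the array (x axis), with 1 row per gene, circles for control and squares for AP arrays; a grey line joins the group means. In most replication-dependent genes the AP arrays lie several log2 units to the right of the control arrays, while in H2aj, H1f0 and H3f3b they lie to the left; each probe has its own brightness, so rows are not to be compared with each other.

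Not every member was measured equally. All 32 genes had 1 probe with 1 spot. In a fit of only the probes well above background on all 6 scans, 6274 of 10005 changed, 3426 upwards and 2848 downwards. Of the tested histone genes, 20 were well above background on all 6 scans. Among these, 17 changed, 12 of them upwards and 5 downwards. The other 3, H1f1, H1f7 and H1f5, met the minimum of 3 scans through their AP scans: H1f1 and H1f7 were on no control scan well above background, and H1f5 on 1. The 12 replication-dependent genes measured on all scans had 10 higher, 1 lower and a median of 3.37. A further 9 genes were too dim to test. H1f6, H1f8, H2ac1, H2az2, H2bc1, H2bu1 and Hist1h2an were well above background on no scan, H2ac21 on 1 AP scan, and H4c14 on 1 control and 1 AP scan. H2ac1 counts among the replication-dependent genes by its symbol, although RefSeq also lists it as Th2a, a testis form. H2bu1 counts among the variants by its symbol. RefSeq also lists it as Hist3h2bb, a form of symbol that is counted here as replication-dependent. Replicative histone genes occur as many near-identical copies, and the files used here give no probe sequences, so the signal of a named copy may include RNA of others.

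The core histones H2A and H2B pair as a dimer in the nucleosome, and several of their replication-dependent genes rose by more than 8-fold. H2bc12, an H2B gene of the large histone cluster, stood at 0.16 and 0.26 on the control arrays and at 4.34 and 4.36 on the AP arrays. This is a 17.6-fold rise, with a change of 4.14 ± 0.10 (SE; adjusted p = 0.000605), rank 39 of the 8732 genes from the top. Hist1h2bg, another H2B gene, went from 0.43 and 0.52 to 4.52 and 4.59, a 16.9-fold rise (change 4.08 ± 0.10). Hist1h2bd, also H2B, lay at 0.54 and 0.49 in control and at 4.63 and 4.50 in AP, a 16.6-fold rise (change 4.05 ± 0.10). In all 3 the gap between groups was more than 10 times the spread within a group.

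The H2A genes moved alongside. Hist1h2af was at 0.30 and 0.12 on the control arrays and at 4.25 and 4.26 on the AP arrays, a 16.5-fold rise (change 4.04 ± 0.11, adjusted p = 0.000626). H2ac4 was at 1.07 and 1.10 against 4.74 and 4.76, a 12.7-fold rise (change 3.67 ± 0.09). Hist1h2ail1 was at 2.64 and 2.56 against 5.76 and 5.57, an 8.36-fold rise (change 3.06 ± 0.12). Its symbol is that of an H2A gene, but RefSeq also lists it under the name "H3 histone", so its family is uncertain. The groups did not overlap in these genes, nor in any of the 23 tested histone genes, also those that did not pass. The share of all genes without overlap was not computed.

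Linker histones of the H1 family close the nucleosome where DNA enters and leaves it. H1f4, a widely used linker histone, stood at -0.91 on control array 1, at -1.02 and -0.99 on the 2 scans of control array 2, and at 2.86 and 2.58 on the AP arrays, a 12.8-fold rise (change 3.68 ± 0.14, adjusted p = 0.000816). H1f1 had levels of -3.29 and -4.83 in control, where it was not well above background, and 0.58 and 0.73 in AP. It was at least 17.7-fold higher, taking the lowest well-measured signal of each control scan in place of its own where that was dimmer (fitted change 4.71 ± 0.57, adjusted p = 0.00644). H1f5 had -2.15 and -3.76 in control, where 1 of 3 scans was well above background, and 0.62 and 0.50 in AP. Its change of 3.51 ± 0.60 (adjusted p = 0.0141) therefore has no firm size, and it was 4.31 without control array 1 and 2.71 without control array 2. The control arrays differed far more from each other for H1f1 and H1f5 than for H1f4, and the H1f5 change lost its call when AP array 1 or AP array 2 was left out (adjusted p = 0.0656 and 0.0647). With another background correction, which adds an offset to dim spots, the changes shrank to as little as 1.40 for H1f1, 1.12 for H1f5 and 2.03 for H1f4, all still past the threshold.

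The histone H3 gene Hist2h3c2, which lies outside the large cluster, was at 2.92 and 3.01 on the control arrays and at 5.67 and 5.74 on the AP arrays, a 6.67-fold rise (change 2.74 ± 0.10, adjusted p = 0.000748). Smaller rises were found for the H2B genes Hist3h2ba (change 1.36 ± 0.10, adjusted p = 0.00248) and Hist1h2bo (0.83 ± 0.22, adjusted p = 0.0401). Without scaling, the change of Hist3h2ba was 0.41 and no longer passed (adjusted p = 0.0650), and that of Hist1h2bo turned to -0.13. Hist1h2bo also lost its call in 7 other alternatives, among them without control array 2, AP array 1 or AP array 2 (adjusted p = 0.0861, 0.101 and 0.149), and Hist3h2ba in 1 other, with normexp and a 75th-percentile shift (change 0.55, adjusted p = 0.139). Hist1h4b, the tested H4 gene, had a change of 0.25 (95% interval -0.04 to 0.55, adjusted p = 0.115); without scaling it was -0.70 and counted as lower (adjusted p = 0.0080).

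Hist1h2bq, an H2B gene of the large cluster, was the replication-dependent gene that fell. It stood at 2.69 and 2.74 on the control arrays and at 1.02 and 0.95 on the AP arrays, 3.32-fold lower (change -1.73 ± 0.10, adjusted p = 0.00143). Its call held in each alternative tried, with changes from -2.69 to -1.13. It was singled out here after its values were seen. RefSeq lists 4 transcripts for it, whereas 26 of the 32 genes have 1.

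**Figure D2:**
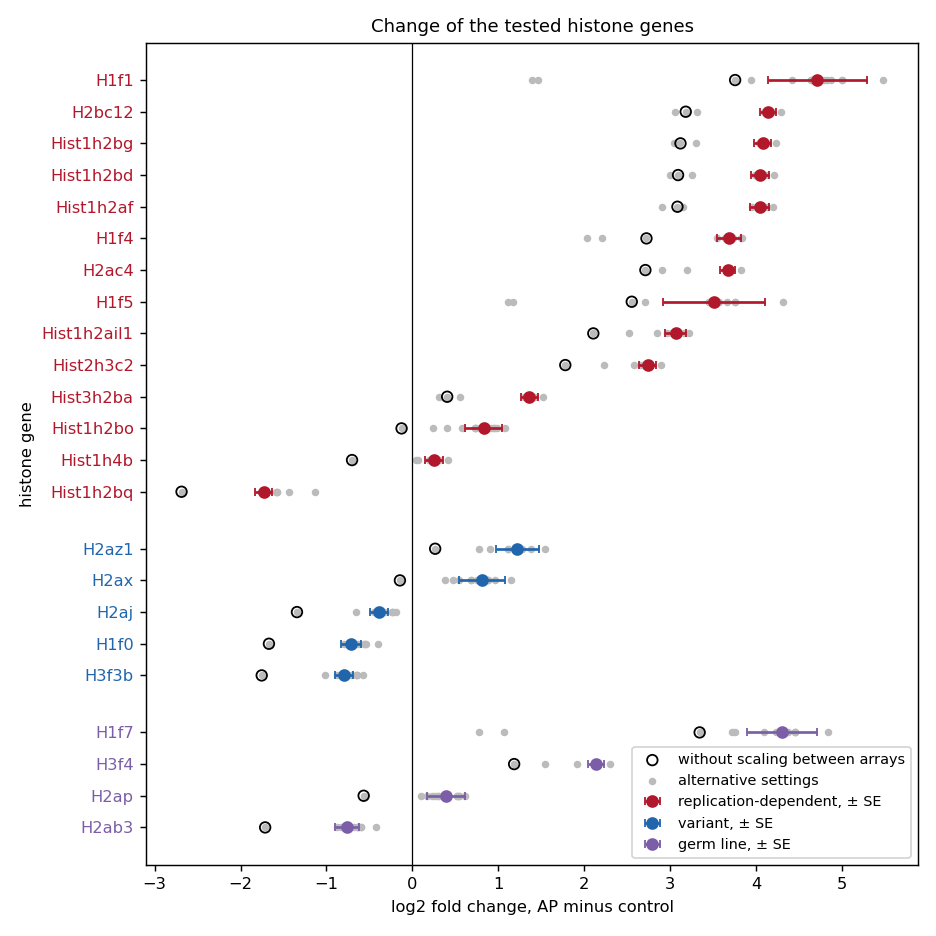
Change of each tested histone gene as log2 fold change, AP minus control (x axis), with 1 row per gene, coloured points for the value with its standard error, grey points for the alternative processing settings and open circles for the values without scaling between arrays. Values without scaling lie about 1 log2 unit lower throughout; H1f1 and H1f7 were not well above background on the control scans, so their points are no measured folds.

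Of the 5 tested variants, 3 fell, 1 rose and 1 did not pass. H3f3b encodes H3.3, which is deposited outside S phase in active genes. It was at 3.26 and 3.42 on the control arrays and at 2.51 and 2.58 on the AP arrays, 1.74-fold lower (change -0.80 ± 0.11, adjusted p = 0.00833), and it stayed lower past the threshold in every alternative tried. H1f0 encodes a linker histone that accumulates in cells that have stopped dividing. It was at 2.06 and 2.23 against 1.38 and 1.48, 1.64-fold lower (change -0.71 ± 0.12, adjusted p = 0.0124), and lost its call without control array 2 (adjusted p = 0.0609) and without AP array 1 (adjusted p = 0.0568).

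H2aj, an H2A variant, was at 3.10 and 3.02 on the control arrays and at 2.61 and 2.74 on the AP arrays, 1.31-fold lower (change -0.39 ± 0.11, adjusted p = 0.0454). This call was narrow: 12 of 19 alternatives, among them each omission of an array, left it above the threshold, with changes from -1.34 to -0.19 over all of them. H2az1 encodes H2A.Z, a variant found at gene starts. It was at 2.88 and 3.53 against 4.45 and 4.41, a 2.33-fold rise (change 1.22 ± 0.25, adjusted p = 0.0226). The call on H2az1 was lost without scaling (change 0.27, adjusted p = 0.386) and when AP array 1 or AP array 2 was left out (adjusted p = 0.0905 and 0.0885).

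H2ax encodes H2A.X, the variant that is phosphorylated beside DNA breaks. Its levels were 0.11 and 0.22 in control and 1.32 and 0.64 in AP, with the AP arrays further apart than the arrays of any group for another histone gene measured on all scans. Its change of 0.81 ± 0.27 did not pass (adjusted p = 0.0723, 95% interval 0.04 to 1.58), and without scaling it was -0.14. It passed as higher in 7 of 19 alternatives, among them without AP array 2 (change 1.15, adjusted p = 0.0244), and was 0.47 without AP array 1. H2az2, the second H2A.Z gene, had levels of -5.36 and -4.25 in control and -4.21 and -4.27 in AP, all at background. H3f3a, the other H3.3 gene, had no named probe.

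**Figure D3:**
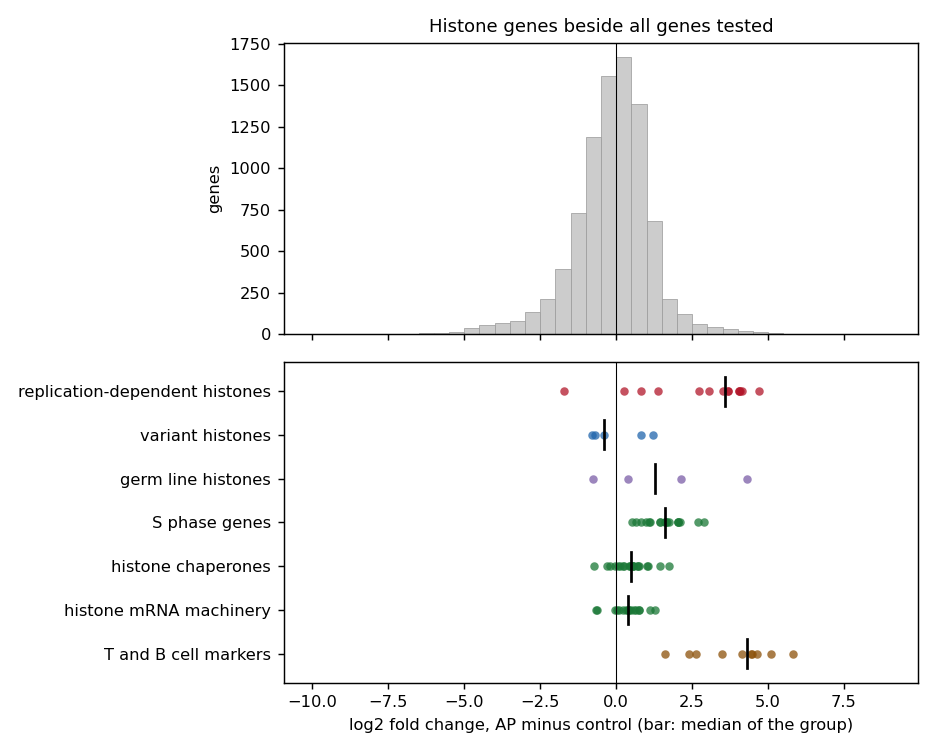
Upper panel, number of genes (y axis) by log2 fold change, AP minus control (x axis), for the 8732 genes tested; lower panel, the tested genes of each class or list on the same axis, with a vertical bar at the median. The replication-dependent histones have their median at 3.59 and the variants at -0.39, beside 1.62 for S phase genes and 4.29 for markers of T and B lymphocytes.

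Of 4 tested genes known from the germ line, 2 rose, 1 fell and 1 did not pass. H3f4, also listed as Hist3h3 and known from testis, was at 2.85 and 2.87 on the control arrays and at 4.98 and 5.02 on the AP arrays, a 4.41-fold rise (change 2.14 ± 0.09, adjusted p = 0.000962). H1f7, a linker histone of spermatids, was not well above background on the control scans (-4.31 and -5.39) and reached -0.48 and -0.62 on the AP arrays, at least 9.11-fold higher (fitted change 4.30 ± 0.41, adjusted p = 0.0039); with the offset on dim spots its change was as small as 0.78. H2ab3, a short H2A form, was 1.69-fold lower (change -0.76 ± 0.14, adjusted p = 0.0172), and the call was lost in 4 alternatives, 3 of which leave out an array. H2ap, an H2A form of the testis, did not pass, with a change of 0.39 (95% interval -0.23 to 1.01); without scaling it was -0.57. The medians of the classes stay as they are when H1f1 and H1f7 are put at their bounds.

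The promoters of 5 genes are shown because these genes share motifs but not direction: H2bc12, Hist1h2bd and Hist1h2af rose by more than 16-fold, and Hist1h2bq and H3f3b fell. Each is 150 bases, from 190 to 41 bases before the annotated start on the gene's strand, from RefSeq (assembly GRCr8). Capitals mark the CCAAT box, in either strand as CCAAT or ATTGG, and the octamer, in either strand as ATTTGCAT or ATGCAAAT; no matches overlap.
H2bc12, chr17:47181981-47182130, minus strand: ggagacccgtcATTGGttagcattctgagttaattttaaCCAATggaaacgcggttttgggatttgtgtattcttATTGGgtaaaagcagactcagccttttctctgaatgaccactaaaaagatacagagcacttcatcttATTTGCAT
Hist1h2bd, chr17:47489049-47489198, minus strand: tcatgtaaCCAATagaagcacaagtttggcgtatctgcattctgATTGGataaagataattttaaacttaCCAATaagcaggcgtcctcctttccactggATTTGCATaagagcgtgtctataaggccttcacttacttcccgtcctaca
Hist1h2af, chr17:41807694-41807843, minus strand: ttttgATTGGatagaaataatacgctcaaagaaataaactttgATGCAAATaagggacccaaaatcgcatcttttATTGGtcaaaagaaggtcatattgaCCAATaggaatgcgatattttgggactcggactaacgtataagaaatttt
Hist1h2bq, chr17:41869382-41869531, minus strand: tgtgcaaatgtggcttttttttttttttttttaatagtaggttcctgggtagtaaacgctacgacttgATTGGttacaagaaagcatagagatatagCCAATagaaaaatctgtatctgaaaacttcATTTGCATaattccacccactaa
H3f3b, chr10:101757677-101757826, minus strand: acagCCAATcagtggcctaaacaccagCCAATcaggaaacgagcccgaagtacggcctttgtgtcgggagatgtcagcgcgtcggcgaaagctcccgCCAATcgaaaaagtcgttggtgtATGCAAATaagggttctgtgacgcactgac

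In these windows H2bc12, Hist1h2bd, Hist1h2af and H3f3b each have 3 CCAAT boxes and 1 octamer, and Hist1h2bq has 2 and 1. The octamer begins 48 bases before the annotated start in H2bc12, 90 in Hist1h2bd, 147 in Hist1h2af, 63 in Hist1h2bq and 70 in H3f3b. The table of promoters, each from 250 bases before to 50 after the start, held 31 of the 32 histone genes. A CCAAT box was in 28 of these (90.3%), against 37.5% of 33469 promoters in all. The octamer was in 9 (29.0%, against 1.78%), and a TATA box, searched as TATAAA in either strand, in 16 (51.6%, against 14.2%). By class, 16 of 17 replication-dependent genes held a CCAAT box, 6 the octamer and 11 the TATA box; of 7 variants these were 6, 2 and 3, and of 7 germ line genes 6, 1 and 2. The motifs were thus present in genes that rose and in genes that fell, and a match of letters is no evidence of binding.

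Genes needed for DNA synthesis rose together. Of the 30 S phase genes listed, 21 had a named probe and 19 could be tested. All 19 were higher, with a median change of 1.62, beside 24.1% of all genes higher and 31.9% lower. Ccna2, the cyclin of S phase and early mitosis, rose 7.40-fold (change 2.89 ± 0.14, adjusted p = 0.00108), from -2.74 and -2.48 to 0.32 and 0.23. Rrm2, the subunit of ribonucleotide reductase made in S phase, rose 6.49-fold (2.70 ± 0.12), Cdc45, part of the replicative helicase, 4.28-fold (2.10 ± 0.09), and Cdt1, which licenses replication origins, 4.12-fold (2.04 ± 0.12). Without scaling 11 of the 19 were higher and 1 lower, beside 5.30% and 62.4% of all genes. With a background correction by normexp, 9 were higher with a 75th-percentile shift and 19 with quantile scaling. Over every probe, 934 and 3243 of 13220 were higher in these settings, in that order.

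Few genes of the machinery that makes histone messenger RNA passed the threshold. Of 30 listed genes, 19 had a named probe and 17 could be tested, with a median change of 0.40. Of these, 5 changed, a smaller share than the 56.0% over all genes. Only 1 was lower, beside 31.9% of all genes, and 4 were higher, near the 24.1% over all genes. The 4 were Cdk2, the kinase that turns on NPAT (change 1.27 ± 0.15, adjusted p = 0.00604), Coil, the coilin of Cajal bodies (1.10 ± 0.11), Patl1, a factor of messenger RNA decay (0.76 ± 0.15), and Ccne1, the cyclin partner of Cdk2 (0.64 ± 0.15). Ncbp2, a subunit of the nuclear cap-binding complex, was lower (-0.62 ± 0.12). Npat, the activator of replication-dependent histone genes, was at -1.80 and -2.80 in control and at -1.97 and -1.15 in AP; the groups overlapped, and its change of 0.74 ± 0.48 did not pass (adjusted p = 0.265). Slbp, which binds the stem-loop, had no named probe. Without scaling, which lowers all genes, none of the 17 was higher and 8 were lower, beside 5.30% and 62.4% of all genes.

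Histone chaperones carry histones to DNA. Of 30 listed, 24 had a named probe and 21 could be tested, with 11 higher, 1 lower and a median of 0.48. The 12 changed of 21 stood near the 56.0% changed over all genes. By direction they differed, since 24.1% of all genes were higher and 31.9% lower. This difference was not tested. Mms22l, which acts at stalled replication forks, had a change of 1.75 ± 0.32 (adjusted p = 0.0175) and was well above background on 1 control scan only. Chaf1b, a subunit of the chaperone CAF-1 that places new H3 and H4 behind the fork, had 1.45 ± 0.10 (adjusted p = 0.00192). Anp32e, which removes H2A.Z, had 1.03 ± 0.09, and Atrx, which places H3.3 at repeats, 0.76 ± 0.11. Ipo4, an importin that carries H3 and H4, was not well above background on the AP scans and was at least 1.47-fold lower (fitted change -0.72 ± 0.15, adjusted p = 0.0233). Without scaling 1 of the 21 was higher and 13 were lower, near the 5.30% and 62.4% of all genes, and the change of Atrx was -0.19. With an array left out, 4 to 7 chaperones passed the threshold.

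Of 3 histone proteins whose symbols lie outside the rule, Cenpa, the H3 form of centromeres, was at least 6.72-fold higher, since it was not well above background on the control scans (adjusted p = 0.00115). Macroh2a1, a large H2A variant, had a change of 0.75 ± 0.15 (adjusted p = 0.0225), and -0.21 without scaling. Macroh2a2 was too dim to test.

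Summed over the tested genes of a class, as multiples of the array's 75th percentile, the replication-dependent histones had 29.9 and 29.8 on the control arrays and 233 and 228 on the AP arrays. The variants had 30.8 and 36.1 against 38.8 and 38.2. S phase genes had 19.2 and 19.3 against 46.0 and 44.8. The markers of T and B lymphocytes moved along with these sums. Of 13 listed, 11 had a named probe and all 10 tested were higher, beside 24.1% of all genes. Their median change was 4.29, and their summed signal was 6.47 and 5.99 on the control arrays against 51.4 and 55.9 on the AP arrays. The B cell marker Cd79b was not well above background on the control scans and was at least 18.3-fold higher. With the markers that were dim on the control scans at their bounds, the median of the list is 3.82. Lck and Cd3e, a kinase and a receptor chain of T cells, had changes of 5.08 ± 0.31 and 4.63 ± 0.09; Lck was well above background on 1 of 3 control scans, so its change has no firm size. Acinar markers summed to 46.2 and 45.2 on the control arrays and 64.6 and 54.3 on the AP arrays. Their median change was 0.85, and -0.11 without scaling. The part of lymphocyte RNA in the histone and S phase values was not tested.

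**Figure D4:**
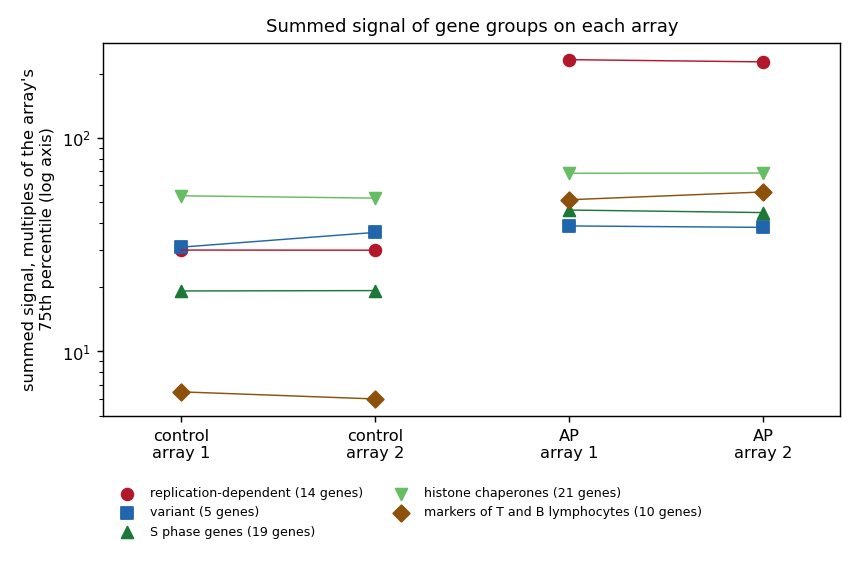
Summed signal of 5 gene groups on each array, as multiples of the array's 75th percentile (y axis, log scale), by array (x axis), with 1 point per group and array. The replication-dependent histones go from 29.9 and 29.8 on the control arrays to 233 and 228 on the AP arrays and the lymphocyte markers from 6.47 and 5.99 to 51.4 and 55.9, while the variant histones go from 30.8 and 36.1 to 38.8 and 38.2; the order of the groups on an array reflects the number and brightness of probes.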

How the data were processed

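Total RNA of rat pancreas was hybridised to 1-colour Agilent arrays on 1 slide. Per the submitters' processing notes, spots were read with Agilent Feature Extraction 11.0.1.1, and the authors deposited each spot's background-subtracted intensity with marks for outliers and for signal above background. They also deposited a normalized table in log2, used here as an alternative. Here, control spots and outlier-marked spots were left out, and log2 intensities were averaged per probe. The array's 75th percentile over non-control probes was subtracted, and the scans of 1 array were averaged. Of 24684 probes, 14294 were named through their accession by current RefSeq genes (assembly GRCr8). A probe had to be well above background on 3 or more of the 6 scans, which kept 13225, and 13220 could be fitted. In 71 of these, 1 group had a value on 1 array, so the spread came from the other group; no histone gene was among them. limma 3.58.1 (lmFit and eBayes, R 4.3.3, 2 residual degrees of freedom) gave two-sided p-values, adjusted over all 13220 by the Benjamini-Hochberg method. Each p in the text is from this fit, save where an alternative is named. There it is from the limma fit of that alternative, adjusted over the probes tested in it. The brightest probe stood for a gene. Where a probe was well above background on no scan of a group, its fold is a bound against the lowest well-measured signal of each scan. The normexp background correction used median spot signals, since mean signals were not used here. The method was tested on simulated data. Summaries used Python 3.11.15 with pandas 2.3.3 and numpy 2.4.6; plots used matplotlib 3.10.9.

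The histone genes, the lists and markers were chosen with earlier results of these data known. Values were to be named for each tested histone gene, array by array for the 12 with the largest change past the threshold and for 7 variants; in other lists, for up to 4 changed genes with the largest change, and for Slbp and Npat. Genes named to spell out a small count (Hist1h2bq, Ncbp2 and Ipo4) were chosen after their values were seen. A listed marker is not reported here by name. Whether replicate numbers pair the arrays is not known from the labels. The deviations of array 1 from its group mean correlated with r = -0.214 between the groups, across probes. This value cannot decide on pairing, because its sign would turn if the arrays of a group exchanged their numbers.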

Additional observations from a re-analysis of the deposited data

How the results depend on the processing

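Each value was recomputed under 19 alternatives, 18 of them planned. Of 434 values of a histone gene under an alternative, 387 kept their direction and side of the threshold, 32 lost their call, 11 gained one and 4 turned sign. The 4 all turned without scaling: H2ap to -0.57, H2ax to -0.14, Hist1h2bo to -0.13 and Hist1h4b to -0.70. Of 23 genes, 13 kept their call in every alternative that tested them. Of 20 changed histone genes, 14 to 18 remained in number when an array was left out, and of 13 replication-dependent ones 11 to 13. Of 4 changed variants 1 to 3 did, with 2 without control array 2 and 1 without AP array 1. Over every probe, 7282 changed, 4638 to 5842 without an array (the lowest without control array 2) and 2655 with normexp and a 75th-percentile shift. The share higher among changed probes was 48.8%, and 8.97% without scaling, 35.2% with that normexp setting and 66.9% with no filter on dim probes. For the histone mRNA machinery the count of 5 became 1 with that normexp setting, 8 without scaling, 11 with 6 scans as replicates, 9 with the scan session as a block, 3 with a replicate block and 3 to 5 without an array. For the chaperones 12 became 0 with it, 5 with the replicate block and 4 to 7 without an array. For the S phase genes 19 became 9 with it, 12 without scaling and 15 to 17 without an array. With normexp and quantile scaling the counts of these lists were 6, 13 and 19. The replicate number as a block gave 5516 probes and 18 histone genes, losing H2aj and Hist1h2bo; crossing the pairs, an alternative chosen after seeing the data, gave 7292 and 20. With scans 1 and 2 of each group alone, which come from 1 scan session, all 23 histone genes kept direction and call; the other session holds 1 scan per group and gave no test. The cause of these changes was not tested. With an array left out, its group has 1 array, which was assumed to vary like the other group. Genes dim on the control scans have a direction but no measured fold.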

Other observations

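In the order of RefSeq genes, 14 of the 18 replication-dependent histone genes lie on chromosome 17. Genes next to each other there did not always move alike. Hist1h4b (change 0.25, not past the threshold) is the neighbour of H2bc12 (4.14). Hist1h2bq, which fell (-1.73), lies between H1f6, a testis linker histone too dim to test, and H1f4 (3.68). Hist1h2bd (4.05) and H2ac4 (3.67), an H2B and an H2A gene, are neighbours that rose alike. On chromosome 10, Hist3h2ba (1.36), H2bu1 (too dim to test) and H3f4 (2.14) lie within a short stretch of genes, with H2ac25 between the last of these. Whether neighbours differ more or less than other genes was not tested, and a probe may read near-identical copies.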
